A study of Mus musculus with 6 samples.

Results

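The Hippo-YAP-TEAD genes are 10 genes chosen by name: the transcription factors Tead1, Tead2, Tead3 and Tead4, the coactivators Yap1 and Wwtr1 (the gene of TAZ), the kinases Lats1 and Lats2, and Amotl2 and Vgll4, whose products restrain YAP and TEAD. The authors' deposited table of differential accessibility assigned 61 of its 65535 listed peaks to 8 of them. Tead1 had 16 listed peaks, Tead4 and Vgll4 had 9 each, Yap1 and Lats2 had 7 each, Amotl2 had 6, Wwtr1 had 4 and Tead3 had 3. Tead2 and Lats1 had 0 listed peaks under their own symbols. ATAC-seq, which marks open chromatin with cuts of the Tn5 transposase, was run on E14 mouse embryonic stem cells carrying the Tg(Nkx2-5-EmGFP) reporter, kept with leukemia inhibitory factor on mitomycin-treated embryonic fibroblast feeders. There were 3 control (WT) libraries and 3 Lmna KO libraries, all with the reporter background. Lmna encodes the nuclear lamina proteins lamin A and lamin C. The labels name control and knockout lines without stating if the libraries of a group are separate clones or cultures, so the spread behind the deposited p-values may be technical. The deposited values used here are group means, so no value per library is given and depth per library is unknown. At the targeted gene, 2 of the 5 listed peaks of Lmna were lost in the knockout cells, the stronger with a deposited log2 fold of -4.27 (FDR 4.44e-20), and 2 were gained.

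In Hippo signalling, upstream kinases activate LATS1 and LATS2, which phosphorylate YAP and TAZ and keep them out of the nucleus. When the kinases are quiet, as in cells under tension on a stiff support, YAP and TAZ enter the nucleus and bind TEAD proteins, which sit on DNA at the sequence GGAATG and switch on genes of growth and of the cytoskeleton. Angiomotin-family proteins such as AMOTL2 hold YAP at cell junctions, and VGLL4 competes with YAP for TEAD. LATS2 and AMOTL2 are themselves known targets of YAP and TEAD. In the early mouse embryo, TEAD4 with YAP directs the trophectoderm, while cells of the inner mass, the source of embryonic stem cells, keep YAP in the cytoplasm.

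The promoters are shown first because they carry the letters that TEAD factors bind. RefSeq promoter windows of GRCm38.p6, the assembly of mm10, run from 250 bases before to 50 bases after a transcript start and were matched for 8 of the 10 genes, with 12 windows. Tead1 and Tead4 were not matched. The motif GGAATG, searched on both strands (CATTCC on the other strand) with overlaps counted, was found in at least 1 window of 6 of the 8 genes, which were Yap1, Wwtr1, Tead3, Lats2, Amotl2 and Vgll4. It was found in no window of Tead2 or Lats1. Over all 27025 genes with a window the share was 16.6%, and over all 32851 windows it was 14.7%, beside 8 of the 12 windows of these genes. A match is a description of the letters and does not show binding. Below, the motif is in capitals and every sequence reads 5′ to 3′ on the gene's strand. The first 2 are the stretches of the Wwtr1 and Yap1 windows upstream of the annotated gene, at chr3:57575911-57576160 (minus strand) and chr9:8004639-8004846 (minus strand). The coactivator genes are shown in full because the promoter peak was called in Wwtr1 and not in Yap1. The deposited log2 folds of these peaks, 0.49 and 0.47, lie close together, so the calls do not mark a difference between the genes.
Wwtr1: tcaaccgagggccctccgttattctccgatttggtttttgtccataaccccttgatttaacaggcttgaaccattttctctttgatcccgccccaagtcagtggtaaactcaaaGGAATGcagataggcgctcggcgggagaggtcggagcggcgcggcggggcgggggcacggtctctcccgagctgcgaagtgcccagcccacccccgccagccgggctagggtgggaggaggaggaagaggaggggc
Yap1: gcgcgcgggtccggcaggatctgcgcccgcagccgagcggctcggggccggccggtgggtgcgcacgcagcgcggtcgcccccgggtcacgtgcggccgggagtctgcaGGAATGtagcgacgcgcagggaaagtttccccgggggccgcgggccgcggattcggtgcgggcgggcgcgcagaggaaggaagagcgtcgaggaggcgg
Distances below are from the transcript start that the window is built on, which is the outer end of the gene in Wwtr1 and lies inside the RefSeq gene span in the other 5 genes. The motif starts 136 bases before that start in Wwtr1 and 141 bases before it in Yap1. Shorter stretches of 30 bases show the motif at the other genes, at chr6:114969268-114969297 (minus strand) for Vgll4, chr9:102717727-102717756 (plus strand) for Amotl2, chr14:57746102-57746131 (minus strand) for Lats2, and chr17:28350706-28350735 (minus strand) for Tead3.
Vgll4: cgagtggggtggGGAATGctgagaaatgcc
Amotl2: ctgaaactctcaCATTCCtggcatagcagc
Lats2: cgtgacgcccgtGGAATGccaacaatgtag
Tead3: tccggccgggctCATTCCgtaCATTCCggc
The motif starts 82 bases before the window's transcript start in Vgll4 and 65 bases before it in Amotl2, and at base 5 after it in Lats2. The Tead3 stretch holds the motif at 123 and at 114 bases before the start, and the Tead3 windows hold further matches that are not shown. All motifs shown lie inside a listed peak of their gene, and of those peaks the ones at Vgll4 and Wwtr1 were gained.

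Accessibility was higher in the knockout cells at 15 of the 61 listed peaks and lower at 1, counted at a deposited FDR of 0.05 or less. The gained share was 24.6%, beside 16.1% of all listed peaks. The lost share was 1.64%, beside 2.26% of all listed peaks. None of the 61 peaks lies in distal chromosome 14 (from 75 Mb on), a segment with many gained peaks, and outside that segment 11.8% of listed peaks were gained and 2.43% lost. Tead4 held 6 of the 15 gained peaks. Without Tead4, a setting chosen after seeing the data, 9 of 52 peaks were gained, or 17.3%. A gained peak was found in 6 genes, Tead4, Amotl2, Lats2, Vgll4, Tead1 and Wwtr1, while Yap1 and Tead3 had none. The deposited log2 folds of the gained peaks ran from 0.49 to 2.4 with a median of 1.01, and their FDR from 5.13e-06 to 0.0445.

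The median log2 fold of the 61 peaks was 0.49 (quartiles -0.24 and 0.94), the same as the median of 0.49 over all listed peaks (quartiles -0.55 and 0.93). The genes thus lay at the centre of the table as a group, and their medians ran from -0.46 at Yap1 to 0.87 at Tead4. Lats2, Amotl2 and Vgll4 had medians of 0.81, 0.82 and 0.8, with 20 positive folds among 22 peaks (90.9%). Positive folds made up 69.1% of all listed peaks and 66.7% of those outside distal chromosome 14. Within the TEAD genes the medians were 0.41 at Tead1, 0.31 at Tead3 and 0.87 at Tead4. Within the coactivators they were 0.51 at Wwtr1 and -0.46 at Yap1. At the strongest start-site peaks of these genes the log2 folds lay closer together, from 0.39 at Tead1 to 0.51 at Tead4. A median over all peaks of a gene depends on its mix of weak and strong peaks, since most weak listed peaks had negative folds. These medians describe few peaks each, and their differences were not tested. In bulk chromatin a change in every cell cannot be told apart from a change in the share of cells with an open site.

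**Figure D1:**
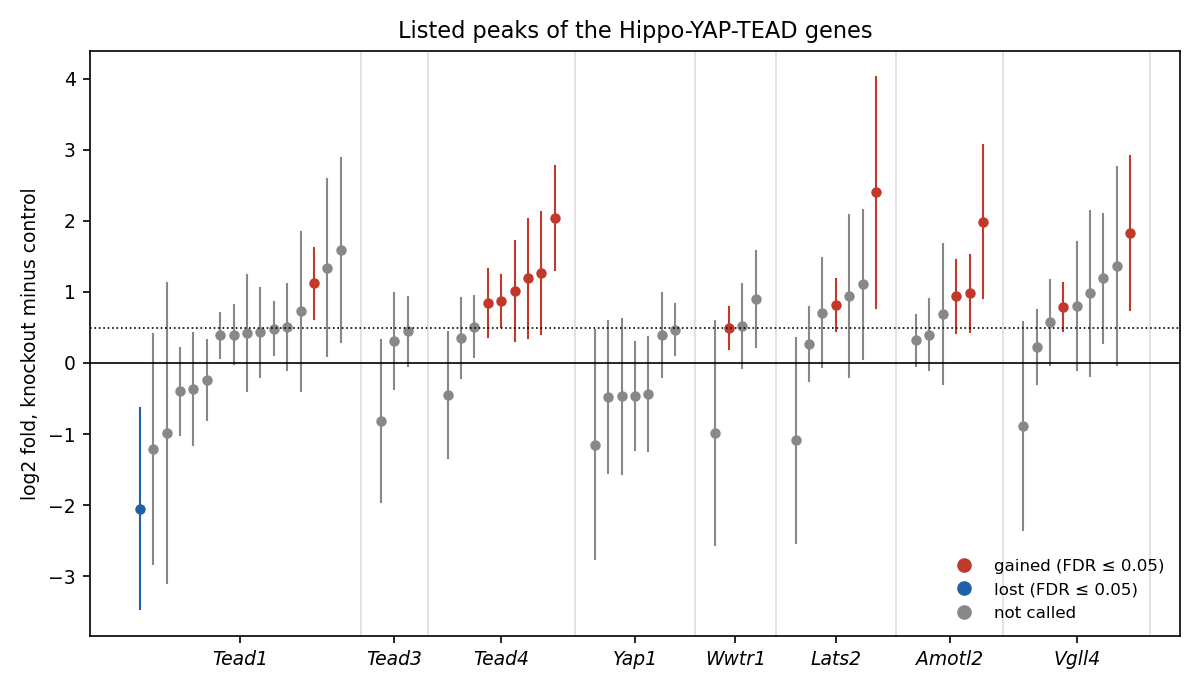
Each point is 1 listed peak, placed by gene and ordered by its deposited log2 fold (knockout minus control, vertical axis), with the 95% interval implied by the deposited p-value under a normal test. The dotted line is the median of all listed peaks, 0.49. Tead4 has 6 red (gained) points, Yap1 and Tead3 have none, and the only blue (lost) point is in Tead1.

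The zero of the folds sets how many of these calls stand. After centring every fold on 0.49 and retesting with the standard errors implied by the deposited p-values, the gained peak of Tead4 with the largest fold and the lost peak of Tead1 kept their calls, and the other 14 did not pass. Centring takes every negative fold further from 0, so the kept call of the lost peak is no added support for it. In that retest 4.47% of all listed peaks were gained and 8.93% lost, beside 16.1% and 2.26% in the deposited table. The centre of 0.49 is the median of listed peaks only. The 33543 tested peaks with p above 0.422 have no fold here, so the median of all tested peaks may differ. The counts in the retest depend on that centre. At an FDR of 0.01, 9 member peaks were gained, beside 8.52% of all listed peaks, and 0 were lost, beside 0.549%, while 1 was lost at an unadjusted p under 0.05.

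Tead4, the TEAD factor of the trophectoderm, changed over a long stretch of the gene. The gene spans chr6:128227143-128300813 on the minus strand, and 6 successive listed peaks, from 4.0 to 45.8 kb inside its upstream end, were gained. The strongest change was at chr6:128261480-128262530 in intron 2, where the deposited log2 concentration (the log2 mean of the normalized reads in a group) was 3.51 in control and 5.55 in knockout. The deposited log2 fold there was 2.04 (implied 95% interval 1.31 to 2.77, FDR 5.13e-06), or 4.11-fold. It also passed the retest, with a centred log2 fold of 1.55 (adjusted p = 0.00212).

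The broadest Tead4 peak, chr6:128279145-128282629 in intron 1, had deposited log2 concentrations of 6.37 in control and 7.24 in knockout (log2 fold 0.87, FDR 0.000194). An internal promoter at chr6:128275114-128275807 had 3.32 and 4.59 (deposited log2 fold 1.27, FDR 0.0362). The remaining gained peaks lay in introns 1 and 2, with deposited log2 folds of 1.19 at chr6:128288864-128290117, 1.01 at chr6:128296439-128297181 and 0.85 at chr6:128254256-128255799. The peak at the upstream start, chr6:128299873-128301035, was strong in both groups, at 6.05 in control and 6.56 in knockout, and did not pass in the deposited table (log2 fold 0.51, FDR 0.108). Gains inside the gene were thus called where the peak at its upstream start was not, a contrast of calls that was not itself tested. Outside distal chromosome 14, 261 genes had 9 listed peaks like Tead4. Their median number of gained peaks was 1, and 1 gene besides Tead4 had 6 or more. This is a description, since Tead4 was picked out after its values were seen. The genes were also not matched by peak strength, and strong listed peaks were gained more often. The Tead4 peaks had a median log2 concentration of 4.86, beside 4.02 over listed peaks outside that segment.

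Tead1, a TEAD factor of heart and muscle among other tissues, changed in both directions. The gene spans chr7:112679356-112906784 on the plus strand. A peak 9.37 kb inside its start, chr7:112688496-112688950, which is annotated as the promoter of an internal transcript, had deposited log2 concentrations of 4.97 in control and 6.09 in knockout (log2 fold 1.12, implied 95% interval 0.62 to 1.62, FDR 0.000495). A peak 135 kb inside, chr7:112813788-112814374 in intron 2, had 3.75 in control and 1.7 in knockout (deposited log2 fold -2.05, implied interval -3.46 to -0.64, FDR 0.041). The loss did not pass at an FDR of 0.01. In the retest the loss had a centred log2 fold of -2.54 (adjusted p = 0.0122). Centring takes every negative fold further from 0, so this is no added support for the loss. The gain, at 0.63, missed the threshold in the retest (adjusted p = 0.0967). The lost peak was weak in the knockout, at 3.25 reads on the linear scale of the deposited concentration. The other 14 listed Tead1 peaks did not pass, with deposited log2 folds from -1.21 to 1.59 and FDR from 0.0754 upwards. Among them were the strong start-site peaks at chr7:112690517-112691807, with 6.96 in control and 7.35 in knockout (deposited log2 fold 0.39, FDR 0.0952), and at chr7:112678637-112681063 (0.4, FDR 0.21).

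**Figure D2:**
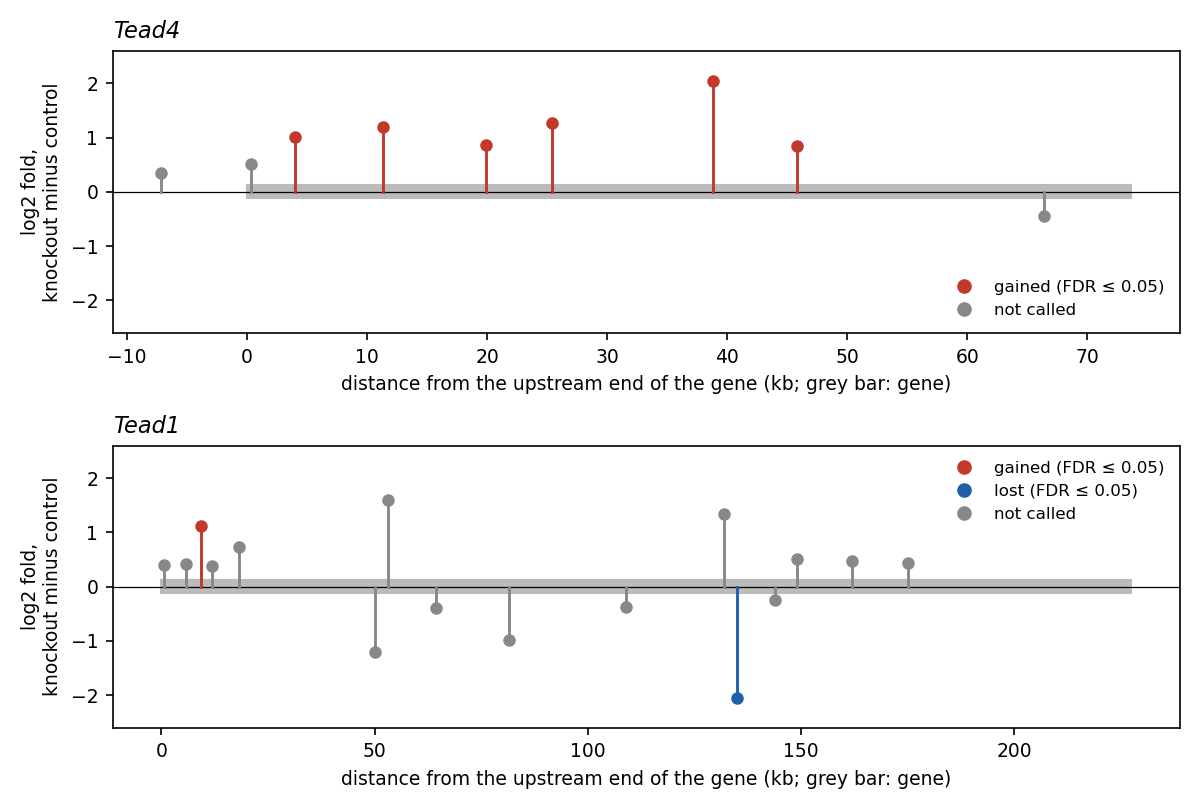
Deposited log2 folds (knockout minus control, vertical axis) of the listed peaks along Tead4 and Tead1 by distance from the upstream end of each gene in kb, with the gene as a grey bar. In Tead4 the 6 red (gained) peaks follow each other from 4.0 to 45.8 kb, and in Tead1 the gained peak lies at 9.37 kb and the blue (lost) peak at 135 kb.

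Tead3 had 3 listed peaks and 0 calls in the authors' deposited table, and 0 had an unadjusted p under 0.05. Its start-site peak, chr17:28349980-28351652, had deposited log2 concentrations of 5.63 in control and 6.08 in knockout (log2 fold 0.45, implied 95% interval -0.04 to 0.94, FDR 0.228), an interval that includes both no change and a gain of the size seen at other members. Tead2, the TEAD gene best known from early embryos and neural tissue, had 0 listed peaks. Its accessibility is not analysed here, since a peak with p above 0.422 would not be in the table.

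Yap1 and Wwtr1 encode the coactivators that carry the signal into the nucleus. The Wwtr1 start-site peak, chr3:57574965-57576755, had the highest mean concentration of the 61 peaks, at 7.02 in control and 7.51 in knockout, and was gained in the deposited table (log2 fold 0.49, implied 95% interval 0.19 to 0.79, FDR 0.0167). The Yap1 start-site peak, chr9:8003414-8005109, had 6.42 in control and 6.89 in knockout and did not pass (deposited log2 fold 0.47, implied interval 0.11 to 0.83, FDR 0.0717). The folds of these promoters lie close together on opposite sides of the threshold, and both intervals include 0.49, the median of all listed peaks. A single gained peak or more was found in 39.3% of the 1495 genes with 4 listed peaks, like Wwtr1, and in 80.4% of the 56 genes with 16, like Tead1, outside distal chromosome 14. The deposited log2 fold of the upstream Wwtr1 peak chr3:57583268-57583964 was 0.9 and did not pass either (FDR 0.0637).

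Yap1 had negative folds at 5 of its 7 listed peaks, the highest share among the members, and 0 of the 7 were called. At an unadjusted p under 0.05 there was 1, the start-site peak. Apart from that peak and an intron peak with a deposited log2 fold of 0.39, the Yap1 peaks had log2 folds between -1.15 and -0.44. All of the 5 implied intervals included 0, for example -1.24 to 0.36 at chr9:7998943-7999761, where the deposited log2 concentration was 4.74 in control and 4.3 in knockout. Of 466 genes with 7 listed peaks outside distal chromosome 14, 58.2% had a gained peak.

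Lats2, the kinase that phosphorylates YAP, was gained at 2 of 7 peaks. The gene spans chr14:57689662-57746212 on the minus strand, before the distal segment. The peak chr14:57732548-57733320, 980 bases from an internal start, had deposited log2 concentrations of 6.1 in control and 6.91 in knockout (log2 fold 0.81, implied 95% interval 0.44 to 1.18, FDR 0.000616). The intron peak chr14:57710775-57711064 was nearly closed in control, at 0.91, and reached 3.31 in knockout (deposited log2 fold 2.4, implied interval 0.78 to 4.02, FDR 0.0359). Of 466 genes with 7 listed peaks outside distal chromosome 14, 26.6% had 2 or more gained peaks. On the linear scale the levels of the intron peak were 1.88 and 9.92, so few reads stand behind the largest fold of the 61 peaks. The peak at the upstream start, chr14:57745806-57746834, which holds the motif shown above, did not pass (deposited log2 fold 0.27, FDR 0.537). Lats1, the paralogous kinase, had 0 listed peaks under its own symbol, but its promoter window lies within chr10:7680381-7681928, which the table assigns to the neighbouring gene Pcmt1. That peak had deposited log2 concentrations of 5.63 in control and 6.0 in knockout and did not pass (log2 fold 0.37, FDR 0.604).

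Amotl2, which retains YAP at junctions, had positive folds at all of its 6 listed peaks, and 3 were gained. The upstream peak chr9:102715055-102715629 had deposited log2 concentrations of 5.09 in control and 6.03 in knockout (log2 fold 0.94, FDR 0.00646). A weak peak at an internal start, chr9:102720048-102720399, had 2.43 and 4.42 (deposited log2 fold 1.99, implied 95% interval 0.92 to 3.06, FDR 0.00566). A peak 23.1 kb upstream, chr9:102692787-102693561, in an exon of another annotated transcript, had 4.8 and 5.78 (deposited log2 fold 0.98, FDR 0.00801). The main start-site peak, chr9:102717204-102718740, was the strongest of the gene, at 6.66 and 6.98, and did not pass (deposited log2 fold 0.32, FDR 0.245). As in Tead4, the called gains thus lay outside the main start-site peak, which was not called. In Lats2 the peak at the upstream start was not called either. Its mean log2 concentration of 5.28 was below the 6.56 of the gained Lats2 promoter peak. In Vgll4 and Wwtr1 the main start-site peak was itself called. These contrasts of calls were not tested. Among 689 genes with 6 listed peaks outside distal chromosome 14, 4.35% had 3 or more gained peaks. These genes were not matched by peak strength, and strong listed peaks were gained more often. The Amotl2 peaks had a median log2 concentration of 5.5, beside 4.02 over listed peaks outside that segment.

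Vgll4, the competitor of YAP for TEAD, was gained at its main start. The peak chr6:114968511-114970113 had deposited log2 concentrations of 6.29 in control and 7.09 in knockout (log2 fold 0.79, implied 95% interval 0.45 to 1.13, FDR 0.000264). The intron peak chr6:114944591-114945429 had 2.77 and 4.6 (deposited log2 fold 1.83, implied interval 0.75 to 2.91, FDR 0.0136). Of 261 genes with 9 listed peaks outside distal chromosome 14, 33.3% had 2 or more gained peaks. The other 7 peaks of Vgll4 did not pass, with deposited log2 folds from -0.89 to 1.37, 6 of them positive. The internal promoter chr6:114921803-114923100 came closest, at 3.15 in control and 4.34 in knockout (deposited log2 fold 1.19, FDR 0.0704).

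Taking the strongest peak that covers an annotated start in each of the 8 genes, all 8 deposited log2 folds were positive, from 0.27 at Lats2 to 0.79 at Vgll4, with a median of 0.46. Of these, 2 were called, Vgll4 and Wwtr1. Among all such start-site peaks at least as strong as the weakest of the 8 and outside distal chromosome 14, 96.0% of folds were positive, the median was 0.38 and 14.2% were gained. A positive fold at the start site was therefore common to nearly all listed promoter peaks of this strength. Of the 15 gained peaks, 8 lay more than 3 kb from the assigned start, with log2 folds from 0.85 to 2.4, and 7 were annotated as promoters. By annotation class, 7 of 19 promoter peaks and 7 of 31 intron peaks were gained, beside 12.1% and 12.7% of listed promoter and intron peaks outside distal chromosome 14. Tead4 held 5 of the 7 gained intron peaks, and without it 2 of 25 intron peaks (8.0%) and 6 of 17 promoter peaks (35.3%) were gained.

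**Figure D3:**
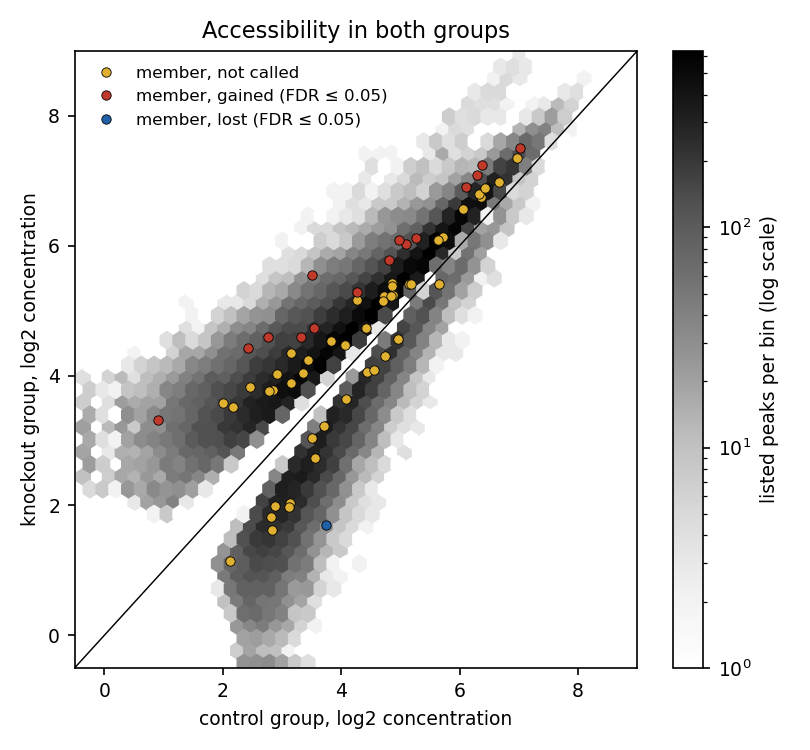
Deposited log2 concentration in the control (horizontal axis) and knockout (vertical axis) groups, with the 61 member peaks as coloured points on all 65535 listed peaks in grey, counted per bin on a log scale. The gap along the diagonal is left by the limit on p of the listed peaks, and all 10 member peaks with a mean of 6 or more lie above the diagonal.

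Direction followed peak strength in these genes as in the whole table. Of the 7 member peaks under a mean log2 concentration of 3, 1 had a positive fold, while all 10 peaks at 6 or more did. Outside distal chromosome 14 the shares over all listed peaks were 33.6% and 95.3%. Between 4 and 6, 8 of 27 member peaks were gained (29.6%), beside 15.7% of all listed peaks of that strength, and without Tead4 3 of 21 were (14.3%). At 6 or more the shares were 40.0% of 10 member peaks and 25.1% of all, with 37.5% of 8 left without Tead4. Peaks were not scaled by width in this comparison.

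Genes elsewhere in the pathway were counted from 4 lists. Upstream Hippo genes, which pass signals to LATS or bind YAP, had 15 gained and 2 lost of 94 listed peaks in 22 genes. The shares were 16.0% and 2.13% (median log2 fold 0.5), beside 16.1% and 2.26% of all listed peaks. None of the peaks in the 4 lists lies in distal chromosome 14, outside which 11.8% of listed peaks were gained and 2.43% lost. In the authors' deposited table Strn3, a subunit of a phosphatase complex that acts on the Hippo kinases, gained a peak (log2 fold 1.47, FDR 6.89e-09), as did Wwc1, the scaffold KIBRA (1.88, FDR 8.23e-07), Nf2, the scaffold merlin (1.82, FDR 0.000744), Amotl1, an angiomotin relative of Amotl2 (1.08), and Frmd6 (0.83). Mob1b, an activator of LATS, and Ptpn14, a phosphatase that binds YAP, each lost a peak there, both with a deposited log2 fold of -1.27. After centring, the gains at Strn3, Wwc1 and Nf2 passed and those named at Amotl1 and Frmd6 did not.

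Known targets of YAP and TEAD had 19 gained and 2 lost of 139 listed peaks in 18 genes. The shares were 13.7% and 1.44% (median log2 fold 0.55), beside 11.8% and 2.43% of listed peaks outside distal chromosome 14. Gained peaks in the deposited table included Asap1 (log2 fold 1.61, FDR 1e-07), Rbms3 (1.44, FDR 9.65e-08), Dock5 (0.99), Nt5e (0.68) and Ccn2, the secreted factor CTGF and a standard readout of YAP activity (0.82, FDR 0.00235), whose only listed peak is at its promoter. Ccn1, the related factor CYR61, lost a distal peak (deposited log2 fold -1.09, FDR 0.0253), and Rbms3 also lost a weak intron peak (-3.01). In the retest Ccn2 missed the threshold (centred log2 fold 0.33, adjusted p = 0.382). The motif GGAATG was found in promoter windows of 4 of the 13 target genes with a window, Ankrd1, Axl, Ccn1 and Crim1. That is 30.8%, beside 16.6% of all genes with a window. The share was not particular to targets. It was 31.6% (6 of 19 genes) in the upstream list and 36.4% (4 of 11) in the force-sensing list. In the cofactor list 2 of 4 genes held the motif. The marker lists described below were lower, with 1 of 9 stem cell markers and 2 of 10 fibroblast markers. Differences between the lists were not tested.

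The cofactor list held 1 gained and 1 lost of 17 listed peaks in 3 genes (5.88% each, median log2 fold 0.33). Outside distal chromosome 14, 11.8% of listed peaks were gained and 2.43% lost. In the deposited table Vgll3, which binds TEAD as Vgll4 does, gained at its start (log2 fold 0.53, FDR 0.0152), and Tjp1, the junction protein ZO-1, lost a weak intron peak (-3.01, FDR 0.0432). Force-sensing genes had 6 gained and 3 lost of 65 listed peaks in 13 genes. The shares were 9.23% and 4.62% (median log2 fold 0.28), beside the same 11.8% and 2.43%. Gained in the deposited table were single peaks at Mrtfa (0.71), a cofactor of SRF that responds to actin, and Piezo1 (0.68), a stretch-gated channel. Actn1, an actin crosslinker, had 2 gained peaks and 1 lost peak, as did Piezo2, and Mrtfb lost 1 (deposited log2 fold -1.37). None of the 6 gains in this list passed the retest.

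**Figure D4:**
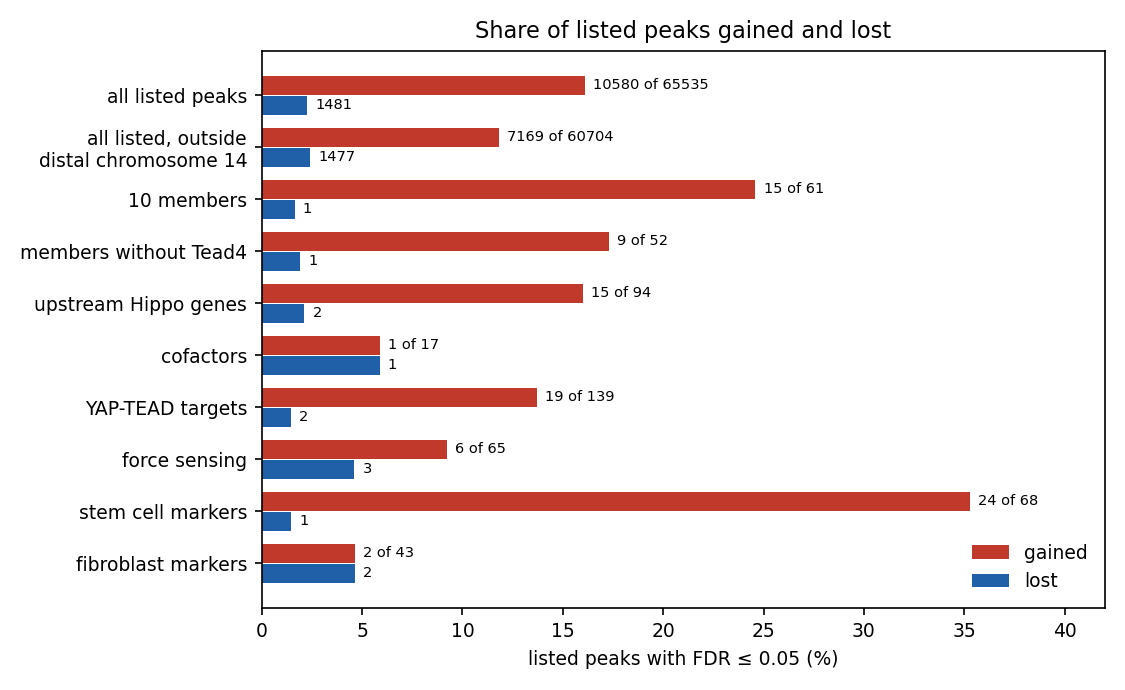
Share of listed peaks gained (red) and lost (blue) at a deposited FDR of 0.05 or less, in percent, with counts beside the bars. The 10 members stand at 24.6% gained and 17.3% without Tead4, between the upstream list at 16.0% and the stem cell markers at 35.3%.

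The labelled cell type was checked on marker genes. All 10 stem cell markers, among them Pou5f1, Nanog and Sox2, had listed peaks, with 24 gained and 1 lost of 68 (35.3% and 1.47%, median log2 fold 0.62). Outside distal chromosome 14, where all peaks of both marker lists lie, 11.8% of listed peaks were gained and 2.43% lost. Esrrb and Tfcp2l1 held 16 of the 24 gained peaks, and the other 8 markers had 8 gained and 1 lost of 40. The strongest promoter peaks of the 10 markers had deposited log2 concentrations of 4.63 to 6.96 in control and 5.6 to 7.75 in knockout. Fibroblast markers, which would come from feeder cells, had 2 gained and 2 lost of 43 listed peaks (4.65% each) in 16 genes, with a median log2 fold of -0.24. A listed promoter peak was found in 9 of these 16 genes, at 3.5 to 6.64 in control and 2.71 to 7.03 in knockout, so their promoters were open in places and none of the 16 was without a listed peak. The promoter ranges of the stem cell and fibroblast markers overlap, so these levels do not separate the 2 cell types. The part of feeder cells in the Hippo-YAP-TEAD values was not tested.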

How the data were processed

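ATAC-seq libraries of control and Lmna KO cells (3 each) were compared through the authors' deposited table. Per the submitters' processing notes, the build was mm10 and the tools were DiffBind, DESeq2, ChIPseeker, MACS2, Bowtie2, Trimmomatic 0.39, bedtools 2.28.0, Picard 1.119, SAMtools and deepTools. The Tn5 shift, the normalization, the model and all settings are not given in the sources used. The log2 concentrations and log2 folds, and the p-values and FDR, are the authors' deposited values. Folds matched the difference of the group concentrations (knockout minus control) within 0.01. Symbols, classes and distances are the table's. The deposited FDR, rank and p imply 99078 tested peaks, so 33543 with p above 0.422 are not analysed here.

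Members were all peaks whose symbol was one of the 10 names, and FDR at or under 0.05 was a call. Standard errors and 95% intervals were implied from the deposited p under a normal test. Retested folds were centred on 0.49, the median of listed peaks only. Unlisted peaks were given a p of 1, and p-values were adjusted by Benjamini-Hochberg over all tested peaks. The retest was run on simulated data with the true offset given as the centre. The use of the median of listed peaks as the centre was therefore not tested. For each member all called peaks and the start-site peak were named, and for each list up to 5 genes per direction with the smallest FDR. Genes compared with a member were matched by number of listed peaks and not by peak strength. A gene of the cofactor list is not reported here and was left out of the counts. Members and lists were chosen with earlier results of these data known, so counts are set beside all listed peaks without a set test. Wider than planned, single uncalled peaks were also named after their values were seen. Promoter sequences and gene spans are RefSeq's, of GRCm38.p6. Alternatives were an FDR of 0.01, an absolute log2 fold of 1, concentration, distance limits, centring, and leaving out Tead4. Computation used SciPy 1.17.1 and pandas 2.3.3 under Python 3.11.15, with numpy 2.4.6, and figures matplotlib 3.10.9.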

Additional observations from a re-analysis of the deposited data

How the results depend on the processing

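No paired analysis was possible because only group means are in the table. No read-count fit and no leaving out of replicates could be run either. Against 15 gained and 1 lost of 61 member peaks, there were 9 and 0 at an FDR of 0.01, and 1 and 1 after centring and retesting. There were 8 and 1 among the 17 peaks past an absolute log2 fold of 1. The 37 peaks at or above the median concentration had 12 and 0, and the 19 within 3 kb of a start had 7 and 0. Shares over all listed peaks under these 3 filters were not computed, and strong listed peaks were gained more often. These filtered counts therefore do not show that the calls are stable. At an unadjusted p under 0.05 the lost count was also 1, the Tead1 peak. Without Tead4, chosen after seeing the data, there were 9 and 1. The limit of 100 kb removed 0 of the 61 peaks. The median log2 fold was 0.48 to 0.49 by strength and distance and 0.0 after centring. Of the 16 calls, 9 held at an FDR of 0.01 and 2 in the retest. The 4 pathway lists together had 41 gained and 8 lost of 315 listed peaks, 24 and 2 at an FDR of 0.01, and 8 and 28 in the retest. Over all listed peaks the gained and lost shares were 16.1% and 2.26%, then 8.52% and 0.549%, then 4.47% and 8.93%. The offset of the retest, the median of listed peaks, moves every fold the same way. More lost calls in the retest were therefore common to the whole table. Weak peaks, such as those of Lats2 and Tead1 with the largest folds, have wide implied intervals.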

Other observations

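Some listed peaks inside or beside the Hippo-YAP-TEAD genes carry another symbol in the authors' deposited table and were not counted above. Within Tead1, the intron peak chr7:112867061-112869272, assigned to Rassf10, had deposited log2 concentrations of 5.33 in control and 4.97 in knockout (log2 fold -0.35, FDR 0.441). Within Tead4, the 3' UTR peak chr6:128227471-128228006, assigned to 9330102E08Rik, had 4.54 and 5.34 (deposited log2 fold 0.81, FDR 0.103). Within Wwtr1, the intron peak chr3:57470226-57472272, assigned to Tm4sf4, had 5.94 and 5.58 (deposited log2 fold -0.37, FDR 0.33). At the downstream end of Tead3, the peak chr17:28331331-28332916, assigned to Rpl10a, had 6.07 and 5.48 (deposited log2 fold -0.59, FDR 0.101). None of the 4 passed, and the counts of calls per gene would be the same with them. The 3 with negative folds are strong peaks, with levels of 4.97 or more in both groups, where most listed peaks had positive folds.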
